A study of Homo sapiens with 6 samples.

Results

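Transcript levels of 10 regulators of epithelial identity were examined in HuCCT1 cells with and without forced expression of CD90, the surface glycoprotein encoded by THY1. The 10 genes were taken by name from the 20811 genes of the expression table: the grainyhead-like factors GRHL1, GRHL2 and GRHL3, the zinc-finger factors OVOL1 and OVOL2, the splicing regulators ESRP1 and ESRP2, and the epithelial transcription factors ELF3, EHF and KLF5. All 10 were in the table, each read through 1 amplicon. The naming rule used no measured value, but the genes were named with earlier results of these data known. HuCCT1 is an established human cell line of intrahepatic cholangiocarcinoma, a cancer of the bile duct epithelium. One line carried the THY1-CMV-GFP lentivirus (HuCCT1/CD90+) and the other the Lenti-CMV-GFP-2A-Puro-Blank lentivirus (HuCCT1/CD90−), both at an MOI of 40. Both vectors carry CMV and GFP in their names, and no line without virus was part of the comparison. Both lines were grown in RPMI with serum, and whether either was a clone or a pool is not given in the sources used here. Total RNA was profiled in 3 libraries per line, labelled as replicates 1 to 3 of each. Nothing in the labels says that these came from separate cultures, so the p-values below measure the spread between these libraries, which may be technical.

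Grainyhead-like factors are transcription factors that open and activate enhancers of junction genes, among them CDH1, the gene of E-cadherin. OVOL factors repress mesenchymal genes, including ZEB1, while ZEB1 and the SNAI factors in turn bind E-box sequences and repress epithelial genes, so that these regulators are known as a mutually antagonistic circuit of the epithelial to mesenchymal transition (EMT). ESRP proteins act after transcription and hold the epithelial splice forms of transcripts such as those of FGFR2, CD44 and CTNND1. ELF3 and EHF are ETS factors and KLF5 is a Krüppel-like factor, all known in glandular and ductal epithelium.

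The sequence before the start sites was read because E-boxes are the letters that ZEB and SNAI factors bind. RefSeq windows on GRCh38.p14 ran from 250 bases before to 50 after a start site. They were read for 5 members (GRHL1, GRHL3, ELF3, EHF and KLF5), with 8 start sites in all. GRHL2, OVOL1, OVOL2, ESRP1 and ESRP2 were not searched, so the matches below say nothing of these members. The E-box CACCTG, searched on both strands (reverse CAGGTG), was present in 2 of the 8 windows, beside 20.6% of the 35116 windows of the same length over all genes. It occurred at 2 places around the first start site of GRHL3, 21 bases upstream and 9 bases downstream of the start, beside 3.49% of all windows with 2 or more, and at 1 place 120 bases upstream of the ELF3 start. The windows of GRHL1, EHF and KLF5 held none. The grainyhead letters AACCNGGTT (in 0.239% of all windows; their own reverse) and the OVOL letters CCGTTA (in 3.07%; reverse TAACGG) were in none of the 8. Of the members without a match, GRHL1 and KLF5 were called higher in HuCCT1/CD90+ in the results below and EHF was not. Below are 150 bases before and 30 after a start site, all on the plus strand. They are of GRHL3 (chr1:24319207-24319386), of ELF3 (chr1:202010437-202010616) and, as a member with no match, of EHF (chr11:34624107-34624286). Capitals mark the E-box. A match is a description of the letters and not of binding.
GRHL3: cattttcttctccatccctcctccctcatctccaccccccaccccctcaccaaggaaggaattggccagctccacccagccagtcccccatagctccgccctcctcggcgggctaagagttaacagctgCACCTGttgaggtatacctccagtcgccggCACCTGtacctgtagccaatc
ELF3: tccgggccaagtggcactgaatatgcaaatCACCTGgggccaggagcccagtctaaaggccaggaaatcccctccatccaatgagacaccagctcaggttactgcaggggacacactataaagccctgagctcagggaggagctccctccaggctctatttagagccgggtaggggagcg
EHF: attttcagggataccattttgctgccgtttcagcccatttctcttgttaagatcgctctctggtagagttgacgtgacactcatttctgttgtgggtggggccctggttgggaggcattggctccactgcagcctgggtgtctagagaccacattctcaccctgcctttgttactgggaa

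Values are RPM, reads of a gene's amplicon scaled to a library total common to all libraries, and each library held 8587634 to 10551516 reads on genes. A count of 3 reads, used as the floor of detection, was worth 0.284 to 0.349 RPM. THY1 was at 0.0357 ± 0.0618 RPM (SD, n = 3) in HuCCT1/CD90− and at 57.4 ± 14.4 RPM in HuCCT1/CD90+, at least 179-fold higher against the floor. The biliary keratins KRT7 and KRT19 were at 3433 and 3228 RPM in HuCCT1/CD90− and at 3656 and 4146 RPM in HuCCT1/CD90+, and 4 of 8 cholangiocyte markers were higher in HuCCT1/CD90+ with 0 lower. Summed levels of markers of other cell types were lower in HuCCT1/CD90+, carried by a few of the genes. The summed level of 6 fibroblast markers ran from 41.8 to 64.9 RPM in HuCCT1/CD90− against 20.3 to 24.7 RPM in HuCCT1/CD90+ (5 of 6 lower, but 2 with the replicate block described below). COL1A2, COL3A1 and DCN then had adjusted p-values of 0.0903, 0.104 and 0.0859, and LUM lost its call without any 1 of the 6 libraries (0.0572 to 0.131). That of 5 endothelial markers was 14.9 to 23.4 against 1.29 to 1.86 RPM (1 of 5 lower, CDH5) and that of 5 leukocyte markers 79.9 to 99.98 against 5.25 to 6.64 RPM (CD14 and LYZ lower, LYZ with an adjusted p of 0.0688 with the block). CDH5 and CD14 made up most of these 2 sums in HuCCT1/CD90−, while VWF, TEK and CD3E had at most 6 reads in any library. Among the better detected markers that were not called, COL1A1 had a log2 fold change of 0.08 and PECAM1, at 2.19 against 0.527 RPM, one of -1.03 (adjusted p = 0.145 in limma, 0.00529 in edgeR and 0.0148 in DESeq2), with every HuCCT1/CD90+ library below every HuCCT1/CD90− library. The 5 hepatocyte markers summed to 2.13 to 4.39 against 0 to 0.465 RPM (1 of 5 lower, APOA1, a call lost without any 1 library but HuCCT1/CD90− replicate 3). PTPRC, which defines leukocytes, VWF and KDR of endothelium, and ALB and TTR of hepatocytes had at most 4 reads in any library. The part of these marker changes in the results below was not tested. In bulk RNA, fewer cells of a type and less RNA per cell cannot be told apart.

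Of the 10 regulators, 9 were higher in HuCCT1/CD90+ and 0 were lower. The exception was EHF. A gene was called when its adjusted p was at most 0.05 and its fold at least 1.5 in limma on log2(RPM + 1), with Benjamini-Hochberg adjustment over all genes. By this rule 7.59% of all genes were higher and 7.49% lower. The median log2 fold change of the 10 was 2.73, beside 0 over all genes. In the same 9 regulators every HuCCT1/CD90+ library lay above every HuCCT1/CD90− library, a pattern held by 17.3% of all genes. With the replicate number as a block, a pairing that a correlation check supports, 8 of the 10 were higher, beside 5.24% of all genes. Their adjusted p-values in limma ran from 0.0113 for ESRP1 to 0.0489 for ESRP2, against 0.000223 and 0.00672 without the block. KLF5 was the regulator no longer called with the block. The SEs and adjusted p-values below are from the fit without the block unless the block is named. Amplicons differ in how well they amplify, so the level of 1 gene is compared between lines and not with that of another gene.

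**Figure D1:**
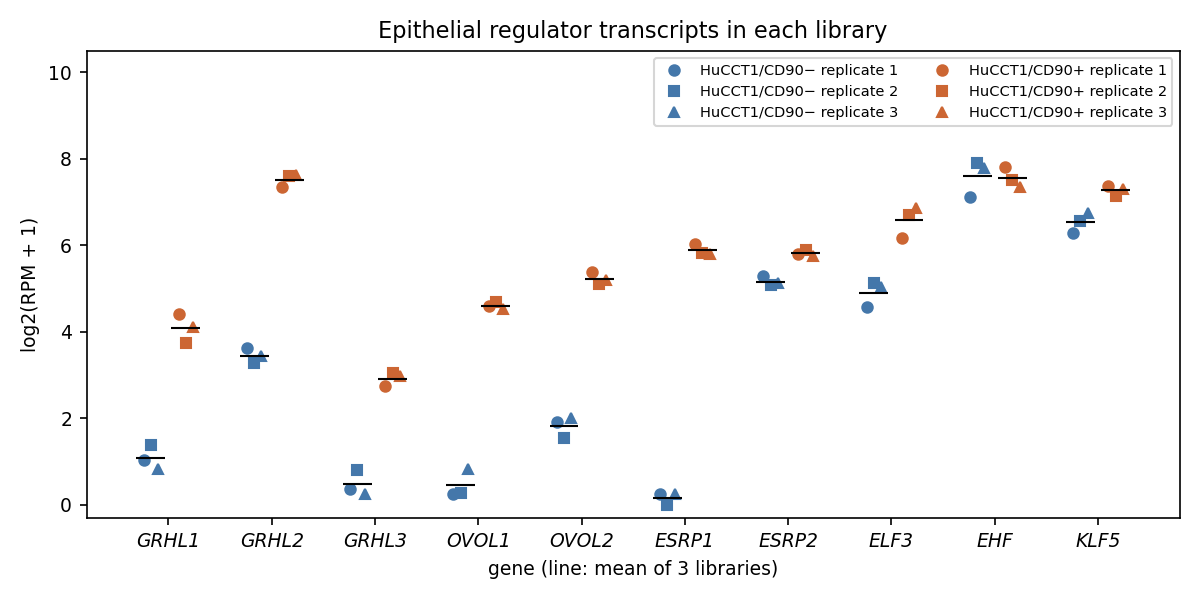
Each point is 1 library, with log2(RPM + 1) on the vertical axis and the 10 regulators on the horizontal axis. Circles, squares and triangles are replicates 1, 2 and 3, blue marks HuCCT1/CD90−, orange HuCCT1/CD90+, and lines are means of 3 libraries. The colours overlap for EHF alone, and ESRP1 goes from 0.128 RPM to 58.3 RPM.

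All 3 grainyhead-like genes rose. GRHL2, the family member best known for keeping the epithelial state in ductal cancers, measured 11.3, 8.67 and 9.90 RPM without CD90 and 161, 192 and 196 RPM with it. It was thus detected in both lines, with each HuCCT1/CD90+ library far above the highest HuCCT1/CD90− library. Its mean was 18.4-fold higher (95% counting interval 16.3 to 20.6, which covers counting error only), a log2 fold change of 4.07 (SE 0.13, adjusted p = 0.000426). GRHL1, a regulator of desmosomal cadherins in the skin, was at 1.04, 1.61 and 0.776 RPM against 20.3, 12.5 and 16.3 RPM. The HuCCT1/CD90− values rested on 11, 15 and 8 reads, and the mean was 14.3-fold higher (counting interval 10.3 to 21.4), with a log2 fold change of 3.01 (SE 0.24, adjusted p = 0.00316). GRHL3, which acts in barrier formation of stratified epithelium and in neural tube closure, was at 0.284, 0.749 and 0.194 RPM, or 3, 7 and 2 reads, against 5.68, 7.22 and 6.84 RPM. It was at or near the floor in HuCCT1/CD90− and held 53 to 63 reads in HuCCT1/CD90+. Its log2 fold change of 2.44 (SE 0.18, adjusted p = 0.00269) understated the change of so low a gene, since the pseudocount of 1 RPM exceeded its HuCCT1/CD90− level. The ratio of its means was 16.1 (counting interval 9.22 to 32.6). Without HuCCT1/CD90− replicate 2, both libraries left were at or under the floor and the mean was at least 22.6-fold higher.

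Both OVOL genes rose. OVOL1 was at 0.190, 0.214 and 0.776 RPM in HuCCT1/CD90−, which were 2, 2 and 8 reads, and at 23.05, 24.9 and 22.2 RPM in HuCCT1/CD90+. The HuCCT1/CD90+ libraries had a CV of 5.86%, while replicate 3 of HuCCT1/CD90− was the 1 library of that line above the floor. The mean was 59.5-fold higher (counting interval 33.4 to 114) and the log2 fold change 4.15 (SE 0.18, adjusted p = 0.000854). Without HuCCT1/CD90− replicate 3, the other two libraries were under the floor and the mean was at least 72.9-fold higher. OVOL2, the relative that represses ZEB1 and TGF-β responses in mammary and corneal epithelium, was at 2.75, 1.93 and 3.01 RPM against 41.1, 33.3 and 35.8 RPM. These groups did not overlap, and the mean was 14.3-fold higher with a log2 fold change of 3.41 (SE 0.15, adjusted p = 0.000893).

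The splicing regulators ESRP1 and ESRP2 both rose, by very different amounts. ESRP1 was read 2, 0 and 2 times in HuCCT1/CD90−, all under the floor, and 605, 475 and 503 times in HuCCT1/CD90+, or 64.9, 55.3 and 54.6 RPM. Against the floor it was at least 181-fold higher, with a log2 fold change of 5.72 (SE 0.11, adjusted p = 0.000223). This was the 10th largest rise of the 20811 genes on the log2(RPM + 1) scale. The log2 fold change was 8.15 at a pseudocount of 0.1 RPM and 3.62 at 5 RPM, and the rank was taken at 1 RPM alone. ESRP2 was well detected in both lines, at 38.1, 32.8 and 33.8 RPM against 55.1, 58.0 and 53.4 RPM. Its libraries did not overlap and were the tightest of the 10 genes, with CVs of 8.04% and 4.19%. The mean was 1.59-fold higher (counting interval 1.46 to 1.72), a log2 fold change of 0.66 (SE 0.07, adjusted p = 0.00672; 0.0489 with the replicate block). The ESRP2 rise was thus close to the 1.5-fold limit of the call.

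Among the ETS and Krüppel-like factors, ELF3 and KLF5 rose and EHF did not. ELF3, an ETS factor of simple epithelium, was at 22.7, 34.0 and 31.6 RPM against 71.1, 103 and 116 RPM. Replicate 1 was the lowest library of both lines, and the groups did not overlap. The mean was 3.29-fold higher, with a log2 fold change of 1.67 (SE 0.26, adjusted p = 0.0184). The call was lost without HuCCT1/CD90− replicate 2 (adjusted p = 0.0504) or 3 (0.0621) and without HuCCT1/CD90+ replicate 2 (0.0702) or 3 (0.0643). KLF5, a factor of proliferating epithelium, was at 76.7, 94.3 and 107 RPM against 165, 141 and 157 RPM. The mean was 1.67-fold higher (counting interval 1.60 to 1.76), with a log2 fold change of 0.74 (SE 0.14, adjusted p = 0.0332). This rise was the least firm of the 9, with an adjusted p of 0.114 with the replicate block. It was also lost without HuCCT1/CD90− replicate 2 (0.0952) and without HuCCT1/CD90+ replicate 1 (0.106), 2 (0.0746) or 3 (0.112).

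EHF, the ETS relative of ELF3, was at 137, 239 and 221 RPM in HuCCT1/CD90− and at 222, 181 and 162 RPM in HuCCT1/CD90+. The lines overlapped, the lowest and the highest library both being of HuCCT1/CD90−, and the means were 199 ± 54.4 and 188 ± 30.7 RPM (SD, n = 3 each). The log2 fold change was -0.05 with a 95% interval of -0.77 to 0.66, so a rise or a fall within that interval was not excluded. Its adjusted p was 1.0 in limma, and 0.766 and 0.833 in edgeR and DESeq2 on the recovered reads. The sign changed without HuCCT1/CD90− replicate 2 (0.10) or 3 (0.04) and without HuCCT1/CD90+ replicate 3 (0.05). EHF was therefore expressed in both lines without a measurable difference between them.

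**Figure D2:**
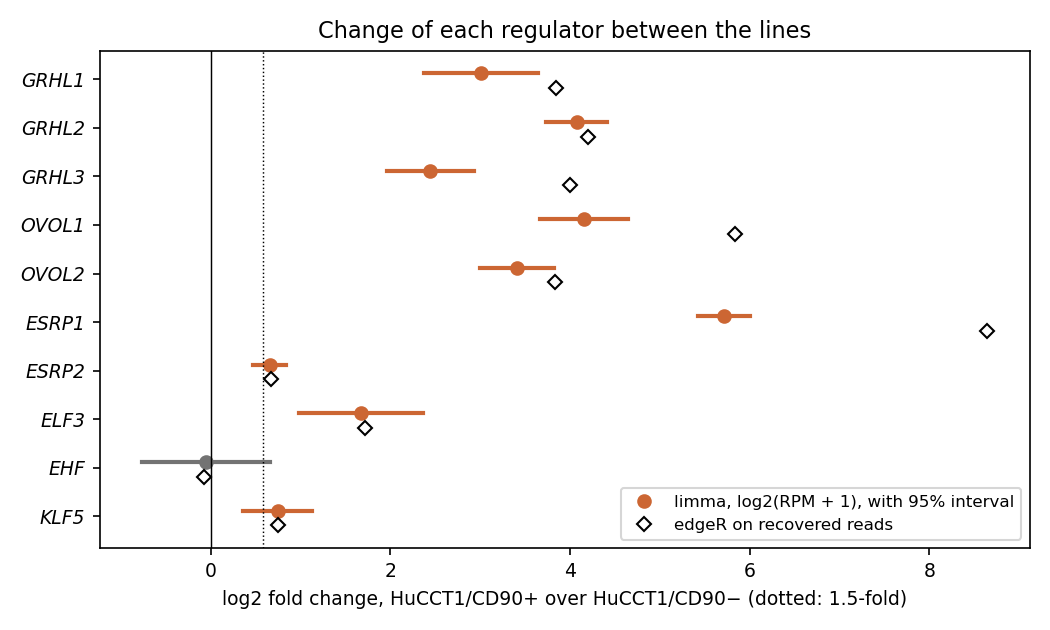
Filled points are log2 fold changes of HuCCT1/CD90+ over HuCCT1/CD90− in limma on log2(RPM + 1), bars their 95% intervals, and open diamonds the log2 fold changes of edgeR on recovered reads. Orange marks called genes, grey EHF, and the dotted line a fold of 1.5; for ESRP1 the fitted values are 5.72 and 8.65, the gene with the widest gap between the methods, where both depend on the count added to the near-empty HuCCT1/CD90− libraries.

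Differences between relatives of a family were then taken on the log2(RPM + 1) scale. The difference of 2 genes was taken within each library, and for all 6 pairs of relatives the 3 libraries of one line lay apart from the 3 of the other. The log2 fold change of ESRP1 exceeded that of ESRP2 by 5.06 (SE 0.11) and that of ELF3 exceeded that of EHF by 1.73 (SE 0.35). The difference of GRHL2 over GRHL1 was 1.06 (SE 0.36) and that of GRHL2 over GRHL3 1.63 (SE 0.25). The difference of GRHL1 over GRHL3 was 0.57 (SE 0.28) and that of OVOL1 over OVOL2 0.74 (SE 0.19). Each pair gave p = 0.1 in a two-sided exact permutation test, also after adjustment over the 6 pairs, which is the smallest p that 3 libraries against 3 can give. The differences within the GRHL and OVOL families moved with the pseudocount. At 0.1 RPM, GRHL2 over GRHL1 was 0.44, GRHL2 over GRHL3 0.33 and GRHL1 over GRHL3 -0.11, and none of these 3 pairs separated the lines. At 5 RPM they were 1.87, 2.56 and 0.69. OVOL1 over OVOL2 was 1.96 at 0.1 RPM and -0.07 at 5 RPM. No order within these 2 families can be read from them. ESRP1 over ESRP2 was 7.48 and 3.02 at these pseudocounts and ELF3 over EHF 1.76 and 1.60.

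The rises were compared with those of the genes around each regulator, as a measure of how much of a chromosome region moved with it. Of the 20811 genes, 19883 (95.5%) were placed on GRCh38.p14 through RefSeq, which was used for order only. For the 50 closest genes that averaged 10 RPM or more, the median log2 fold change lay between -0.31 (around ELF3) and 0.31 (around OVOL1). With these medians subtracted, the log2 fold changes were 3.04 for GRHL1, 3.92 for GRHL2, 2.53 for GRHL3, 3.85 for OVOL1, 3.36 for OVOL2, 5.57 for ESRP1, 0.93 for ESRP2, 1.98 for ELF3 and 0.67 for KLF5, and the same 9 were called. None of the 50 neighbours of GRHL1, GRHL3, OVOL1 or ESRP1 rose as much as the regulator did. GRHL2 and ESRP1 were neighbours of each other, and ESRP1 was the 1 neighbour that rose more than GRHL2. One neighbour lay above OVOL2 (PLCB4, a phospholipase, 3.81), 1 above ELF3 (SLC45A3, a transporter, 1.71) and 6 above KLF5, up to 4.18 for SCEL, a precursor of the cornified envelope. Around ESRP2, 3 of 50 neighbours rose more, namely the cadherin genes CDH1 and CDH3 and ELMO3, which codes for an engulfment and motility protein. For EHF, 39 of the 50 neighbours had a higher log2 fold change.

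**Figure D3:**
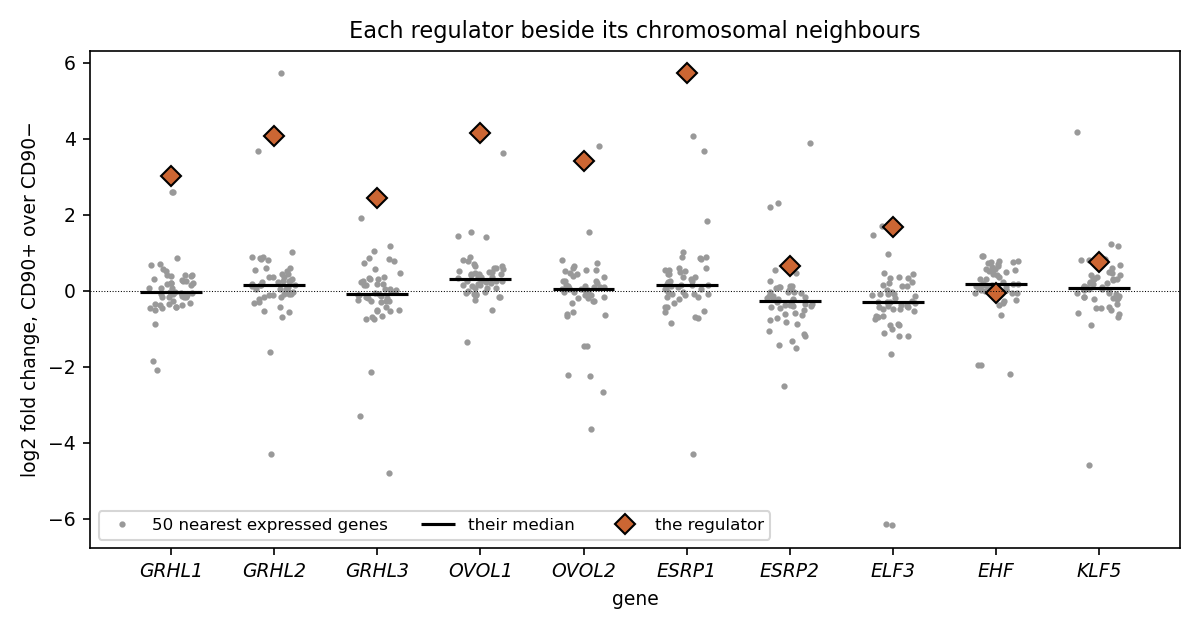
Grey points are log2 fold changes of HuCCT1/CD90+ over HuCCT1/CD90− for the 50 nearest expressed genes of each regulator, bars their median, and orange diamonds the regulator itself. The medians stay between -0.31 and 0.31, with the diamonds of the GRHL and OVOL genes and of ESRP1 between 2.44 and 5.72 and that of EHF, at -0.05, below its own.

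In GENCODE release 29 on GRCh38, GRHL1 (chromosome 2, 9951693 to 10002277), EHF (chromosome 11, 34621093 to 34661057) and KLF5 (chromosome 13, 73054976 to 73077542), all on the plus strand, overlapped no other annotated gene. The other 7 did: GRHL3 overlaps STPG1 on the opposite strand, OVOL1 (chromosome 11, 65787022 to 65797219) the antisense gene OVOL1-AS1, ELF3 (chromosome 1, 202007945 to 202017188) the antisense gene ELF3-AS1, OVOL2 the genes SNX5 and MGME1, and ESRP2 the gene NFATC3. GRHL2 overlapped pseudogenes and the antisense gene AP001207.3, and ESRP1 a pseudogene and the RNA gene RF00017. Where in each gene its amplicon lies, and whether strand was used in counting, are not given in the sources used here, so for these 7 reads of an overlapping transcript cannot be told apart from those of the regulator.

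Genes known to be controlled by grainyhead-like factors were counted next. Of 12 such genes 10 were higher, 1 was lower and 1, the desmosomal cadherin gene DSG1, was at 0 in every library. Their median log2 fold change was 2.96, beside 0 over all genes. CDH1 rose from 14.4 ± 1.69 to 227 ± 23.1 RPM, from libraries at 13.6, 13.4 and 16.4 RPM to libraries at 218, 211 and 254 RPM. The tight junction gene CLDN4 rose from 5.41 to 156 RPM and RAB25, a GTPase of apical recycling, from 1.19 to 111 RPM. The membrane serine protease genes ST14 and PRSS8 rose from 16.0 to 373 RPM and from 4.04 to 304 RPM. SPINT1, the gene of the inhibitor of these proteases, rose from 129 to 394 RPM, a call lost without HuCCT1/CD90− replicate 3 (0.0729) or without HuCCT1/CD90+ replicate 1 (0.0527), 2 (0.0745) or 3 (0.0834). EPCAM, CDH3 and ERBB3 were also higher, and TGM1, a cross-linking enzyme of the cornified envelope, was higher at 1.26 against 4.45 RPM but had an adjusted p of 0.118 with the replicate block. ARHGEF19, an exchange factor of small GTPases, fell from 68.3 to 30.8 RPM.

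The EMT repressors that OVOL factors oppose did not all move. Of 8 genes 0 were higher and 3 were lower, while 4 (SNAI3, TWIST1, TWIST2 and PRRX1) were at or under the floor in all 6 libraries. ZEB1 was at 29.6, 29.5 and 35.6 RPM in HuCCT1/CD90− and at 0.858, 0.699 and 0.760 RPM in HuCCT1/CD90+, a log2 fold change of -4.20 (SE 0.09, adjusted p = 0.000265). ZEB2 was at 2.18, 4.60 and 3.88 RPM and then at 0 in all HuCCT1/CD90+ libraries, at least 10.2-fold lower against the floor. SNAI1 fell from 22.9 ± 7.72 to 4.38 ± 1.08 RPM (adjusted p = 0.016). Its call was lost without HuCCT1/CD90− replicate 3 (0.0642) and without HuCCT1/CD90+ replicate 1 (0.0581) or 3 (0.0666). SNAI2 was well detected at 37.8 ± 4.55 and 36.3 ± 6.87 RPM (log2 fold change -0.06, adjusted p = 0.986).

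Transcripts whose splicing ESRP proteins control were read as totals of 1 amplicon each, so splice forms were not separated. Of 9 such genes 3 were higher and 2 lower, with a median log2 fold change of 0.37. CD44, the hyaluronan receptor, rose from 1.67 to 14.7 RPM. FGFR2 was at 0 in all HuCCT1/CD90− libraries and at 1.29, 2.45 and 1.52 RPM in HuCCT1/CD90+, at least 5.45-fold higher. MAP3K7, the TGF-β activated kinase, was 8.85 against 14.9 RPM, a call lost without any 1 of the 6 libraries. CTNND1, the gene of p120 catenin that holds cadherins at the junction, was at 114, 79.3 and 85.9 RPM and then at 2.36, 2.10 and 3.69 RPM. This was a log2 fold change of -4.67 (SE 0.23, adjusted p = 0.00106), the opposite direction to that of CDH1. Which exons the CTNND1 and CD44 amplicons read is not given in the sources used here, and the part of isoform use in these 2 changes was not tested. ENAH, an actin regulator, fell from 263 to 122 RPM.

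Of 13 other splicing factors known in the epithelial to mesenchymal switch, 3 were higher and 1 lower. RBM47 rose from 46.4 ± 0.540 to 175 ± 13.1 RPM. The muscleblind genes MBNL1 and MBNL3 had log2 fold changes of 0.85 and 0.62, and QKI, which promotes mesenchymal splice forms, one of -1.06. These last 3 were not called with the replicate block (adjusted p = 0.103, 0.0903 and 0.0947). RBFOX2, a factor of mesenchymal splicing, was at 213 ± 33.6 and 231 ± 8.97 RPM (log2 fold change 0.13, adjusted p = 0.613). In all, 9 were not called, among them RBFOX2 and also CELF2, which was under the floor in every library. MBNL2, HNRNPF and KHDRBS1, also not called, had log2 fold changes of 0.81, -0.56 and -0.63. Their adjusted p-values were 0.21, 0.0815 and 0.197 in limma against 0.00589, 0.00723 and 0.00678 in edgeR.

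Most relatives of the regulators did not follow them. Among 20 grainyhead, ETS and Krüppel-like relatives that the panel read, 4 were higher and 4 lower. TFCP2L1, of the grainyhead superfamily, rose from 1.72 to 18.9 RPM and KLF6 from 58.1 to 135 RPM. KLF4 was at 1.31 against 11.3 RPM and ELF4 at 215 against 353 RPM, with adjusted p-values of 0.0558 and 0.168 with the replicate block, and both calls were also lost without some single libraries. KLF9, a factor induced by steroid hormones, fell from 24.6 ± 11.7 to 0.560 ± 0.247 RPM, and KLF12, KLF13 and KLF2 fell with log2 fold changes of -2.15, -1.76 and -0.96. ELF5, an ETS factor of mammary epithelium, was at 0 in every library.

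Other epithelial and ductal transcription factors were split as well, with 3 of 14 higher, 3 lower and a median log2 fold change of 0.02. FOXA1, a pioneer factor, rose from 1.43 ± 0.152 to 9.11 ± 0.321 RPM. TP63, the basal cell factor, fell from 5.96 to 0.404 RPM. TFAP2A and ONECUT2 fell with log2 fold changes of -1.43 and -1.08. FOXA2 was at 31.6 ± 3.29 and 29.1 ± 3.94 RPM and was not called.

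**Figure D4:**
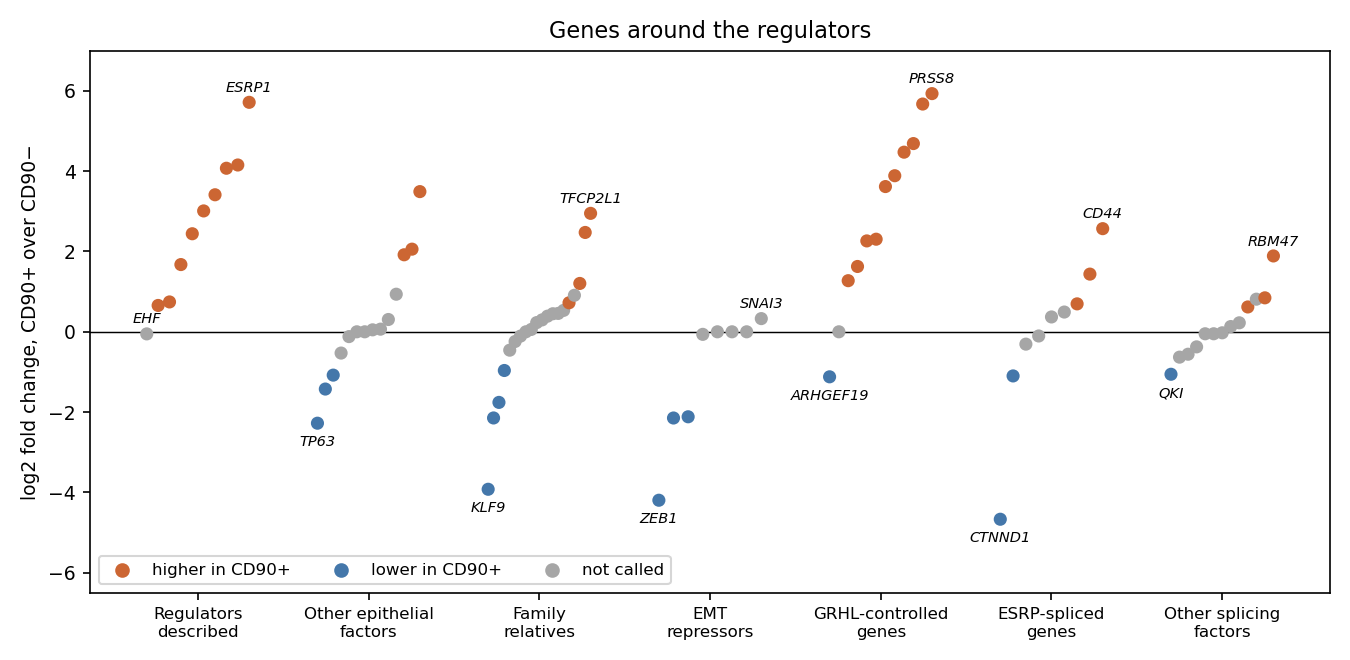
Each point is the log2 fold change of 1 gene in limma on log2(RPM + 1), grouped by list and sorted within it, with orange for higher, blue for lower and grey for not called. The regulators and the GRHL-controlled genes lie mostly above 0, the relatives and other factors on both sides, and the called EMT repressors below 0, down to -4.20 for ZEB1.

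Among the 5 genes whose pattern was closest to the mean of the 10 regulators over the 6 libraries were PDE5A, a phosphodiesterase of cyclic GMP, SYK, a tyrosine kinase, CRB3, an apical polarity protein, and MAP7, a microtubule-binding protein. Pearson's r was 0.99953 for PDE5A and 0.99912 for MAP7. The candidates were the 8786 other genes that averaged 10 RPM or more, of which 185 had an r above 0.99 and 147 an r below -0.99. With 2 lines of 3 libraries each such an r mostly describes the difference between the lines, and it is given as a description.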

How the data were processed

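The authors reverse-transcribed total RNA, amplified it with an Ion AmpliSeq Transcriptome panel for human genes and sequenced the libraries on the Ion GeneStudio S5 Prime. Reads of each amplicon were counted by the ampliSeqRNA plugin. The submitters' processing notes name hg19 and the Transcriptome Analysis Console, and the aligner is not given in the sources used here. The deposited values are RPM, reads scaled by the authors to a common library total, for 20811 genes with 1 amplicon each and no filter on low values. Isoforms without the amplicon are not read.

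RPM was taken to log2(RPM + 1) and tested over all genes with limma 3.58.1 (lmFit, eBayes) in R 4.3.3, the test named in the study's methods, with no replicate block and Benjamini-Hochberg adjustment. Adjusted p-values are those of limma unless edgeR or DESeq2 is named. Fold changes on this scale understate the change of low genes. Ratios of mean RPM have exact binomial 95% counting intervals, without molecular identifiers and so for counting error only, and bounds were set against 3 reads per library. RPM values were whole multiples of 1 read (within 0.05 reads) for 99.9664% of the values of HuCCT1/CD90− replicate 2 and all values of the other libraries. On these reads edgeR 4.0.16 with filterByExpr called 2111 genes higher and 2089 lower of 12070 tested, and DESeq2 1.42.0 2173 and 2065 of 17006. The scripts were tested on simulated data.

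Same-numbered libraries of the lines deviated together over genes (r = 0.178 to 0.32, against -0.294 to 0.0706 for different numbers), so the libraries were treated as paired by number, which only this check supports. Blocked values stand beside results where they change the call. The 10 regulators and all gene lists were chosen with earlier results of these data known, and 1 listed relative, OVOL3, was not in the table. Named are the regulators, THY1, genes of the lists, and the 5 genes best correlated with the regulators' mean. Some items of these lists are counted but not reported here by name. The neighbours named beside a regulator were chosen after their values were seen.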

Additional observations from a re-analysis of the deposited data

How the results depend on the processing

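The 9 regulators called higher were the same genes under both other pseudocounts, a minimum mean of 1 RPM, quantile normalization, median centring, eBayes with trend and robust, edgeR, DESeq2 and the subtraction of neighbour medians. With the replicate block 8 were called. Of 10, 7 were called at a fold of at least 2 (without ESRP2 and KLF5) and 7 at a minimum mean of 10 RPM, which left GRHL1 and GRHL3 untested. Leaving out 1 library at a time gave 7 to 9. The EHF log2 fold change ran from -0.30 to 0.10 when 1 library was left out. Over all genes, edgeR called 2111 higher and 2089 lower against 1580 and 1558 in limma, the replicate block 1091 and 1011, and a fold of at least 2 952 and 922; leaving out HuCCT1/CD90+ replicate 3 gave 960 and 908.

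Among the lists, 1 EMT repressor was higher at a pseudocount of 0.1 RPM. Of the genes spliced by ESRP proteins, 1 was higher at a pseudocount of 5 RPM or a minimum mean of 10 RPM. Of the other splicing factors, 2 were lower at a minimum mean of 1 or 10 RPM, under median centring, in edgeR and in DESeq2, and 0 with the replicate block. In that list 1 was higher with the replicate block, with neighbour medians subtracted and at a fold of at least 2. A minimum mean of 10 RPM left 1 other epithelial factor lower, and the replicate block left 2 relatives higher. With 1 library left out, other splicing factors gave 1 to 2 higher and 0 to 1 lower, relatives 2 to 5 higher, GRHL-controlled genes 8 to 9 higher and EMT repressors 2 to 3 lower. Of the 6 pairs of relatives, 3 lay apart between the lines at a pseudocount of 0.1 RPM, where GRHL1 over GRHL3 was -0.11, and 5 at 5 RPM, where OVOL1 over OVOL2 was -0.065. Permuted within replicate numbers, each pair gave p = 0.25 in an exact permutation test, the smallest that this replicate block allows. The cause of these changes was not tested. Depth limits GRHL3, OVOL1 and ESRP1 in HuCCT1/CD90−, which rested on 0 to 8 reads per library.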
